A study of Equus caballus with 4 samples.

Results

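The constitutive subunits of the 20S and 26S proteasome were examined in differentiating satellite cells of the horse (ESC), which are stem cells of muscle. The members were the genes whose symbol in the array files was PSMA, PSMB, PSMC or PSMD followed by a number, except for the catalytic subunits *psmb5* to *psmb10*. This gave 31 genes with 57 probes, of 24998 gene names and 43603 probes on the array. They comprised 7 subunits of the alpha ring, 5 of the beta ring, 6 ATPases of the base, 3 other subunits of the base, 7 subunits of the lid and 3 chaperones of base assembly that also carry a PSMD symbol. The HMB-treated group was incubated with 50 µM HMB, a leucine metabolite, for 24 h, and 3 mM H2O2 was added for the last 1 h. Control cells received the same H2O2 without HMB, so each value compares HMB with no HMB in cells that had all been damaged by peroxide. Both groups came from m. semitendinosus and were collected on day 3 of differentiation. Each of the 4 arrays carried HMB-treated RNA labeled with Cy5 and control RNA labeled with Cy3, and each array counted as 1 replicate.

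The proteasome degrades proteins that are marked with ubiquitin. Its 20S core particle is a barrel of stacked rings, in which the alpha rings form the gate and the beta rings carry the proteolytic sites. The 19S regulatory particle caps the barrel: ATPases of the base unfold the substrate and push it into the core, while the lid and the remaining base subunits bind ubiquitin chains and remove them. In muscle, this system breaks down a large part of the contractile proteins during atrophy and remodeling. Inflammatory signals replace the catalytic beta subunits with inducible ones, which gives the immunoproteasome.

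Some limits of the arrays apply to every value. The dyes were not swapped, hence treatment and dye cannot be told apart, and all 4 arrays lay on 1 slide. In the labels, the control has a single replicate number for all arrays, and the culture with the best scores was selected for the arrays according to the methods. The p-values therefore measure only the spread between these arrays, which may be technical and may lack the spread between controls. Expression is given as the log2 ratio of HMB-treated over control, as normalized within each array by lowess, where a negative value means lower expression with HMB. The ratio was averaged over the probes of a gene. A gene was tested if a channel of its probe was well above background on all 4 arrays, and it was called where limma gave an adjusted p within 0.05 and the FC reached 1.3. In cultures, fewer cells of a type and less RNA per cell cannot be told apart.

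The constitutive subunits had small ratios, and few of them passed the FC threshold. Of the 31 genes, 29 were tested with 55 probes, and each of these probes was well above background in both channels on all 4 arrays. The exceptions were *psma8*, the alpha subunit of the testis, and *psmb11*, the beta subunit of the thymus, whose probes were not well above background. The median log2 ratio of the 29 genes was -0.18, while it was -0.06 over all 13978 features tested. On the single arrays, the median of the subunits was -0.09, -0.14, -0.25 and -0.21. The subunits *psmd1*, *psma4* and *psmd12* were called lower, which is 3 of 29, whereas 16.4% of all features were called lower. No subunit was called higher by limma or by the methods' t-test, compared with 12.5% of all features with limma, although 3 subunits were higher at an unadjusted p under 0.05. With the adjusted p alone, 11 subunits were lower and 1 was higher (*psma6*), against 28.1% and 18.2% of all features. The mean ratio was below 0 in 24 subunits and in 57.3% of all features. It was below 0 on every array in 17 subunits, against 36.5% of all features, and above 0 on every array in 3 subunits, against 24.5%. The share of subunits called was thus under the background, though this rests on few genes. The share that was lower at the adjusted p alone and the share that ran below 0 were over it. The means of 20 subunits lay between the quartiles of all features, 7 lay below the lower quartile of -0.27, and 2 lay above the upper quartile of 0.17.

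**Figure D1:**
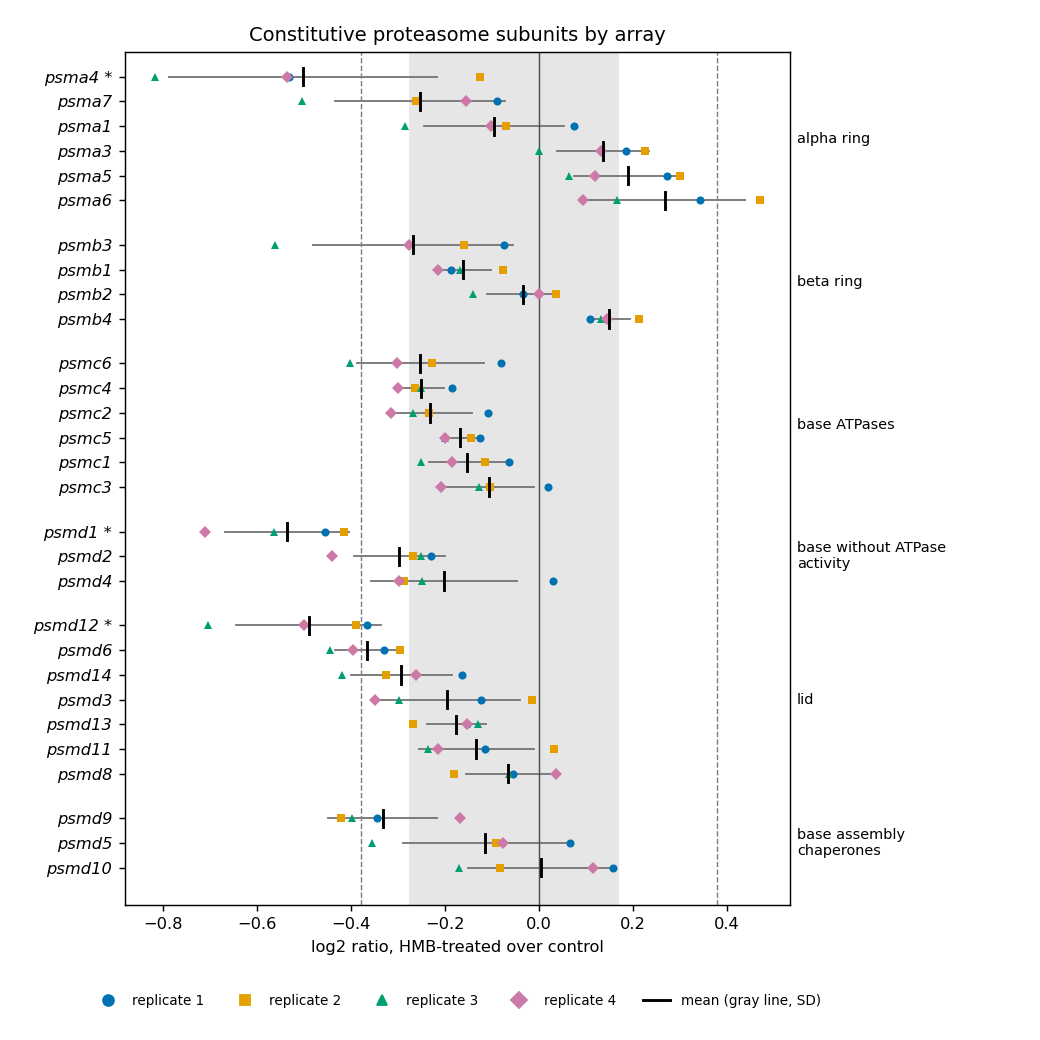
Log2 ratio of HMB-treated over control (x axis) for each of the 29 tested subunits, grouped by class; symbols are the 4 arrays, black bars the means, gray lines the SD, the gray band spans the quartiles of all features and dashed lines mark an FC of 1.3. All 16 member subunits of the regulatory particle have means below 0, while 4 of the 10 core subunits lie above it. Asterisks mark the 3 called genes.

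The medians of the core and the regulatory particle depended on which core subunits were counted. The 10 tested core subunits, without the catalytic *psmb5*, *psmb6* and *psmb7*, had a median of -0.07, with 6 means below 0 and 4 above. The 16 member subunits of the regulatory particle, without the assembly chaperones, had a median of -0.22, and all 16 means were below 0. The subunits *adrm1* and *shfm1* carry other symbols and were not counted. The core median exceeded that of the regulatory particle by 0.15, and by between 0.10 and 0.25 on the single arrays. With the 3 catalytic subunits included, the core median was -0.16, with 9 of 13 means below 0, and the difference was only 0.055, with the core above the regulatory particle on 3 of 4 arrays. With *psma2* and *psmd7* included as well, which carry no symbol in the files, the difference was 0.10. It was not tested, since the genes had been grouped with earlier results of these arrays known. Within the regulatory particle, 8 of 16 genes passed the adjusted p with lower values, 2 of them also passed the FC threshold, and 12 were below 0 on all arrays. In the core, 2 of 10 passed the adjusted p with lower values and 1 with higher values. Of all features, 28.1% passed the adjusted p with lower values and 18.2% with higher values. The FC threshold was also passed by 16.4% of all features with lower values, and 36.5% were below 0 on all arrays. With median centering in place of lowess, the means of *psmc3* and *psmd8* turned to just above 0, and the sign of the beta ring median turned as well.

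**Figure D2:**
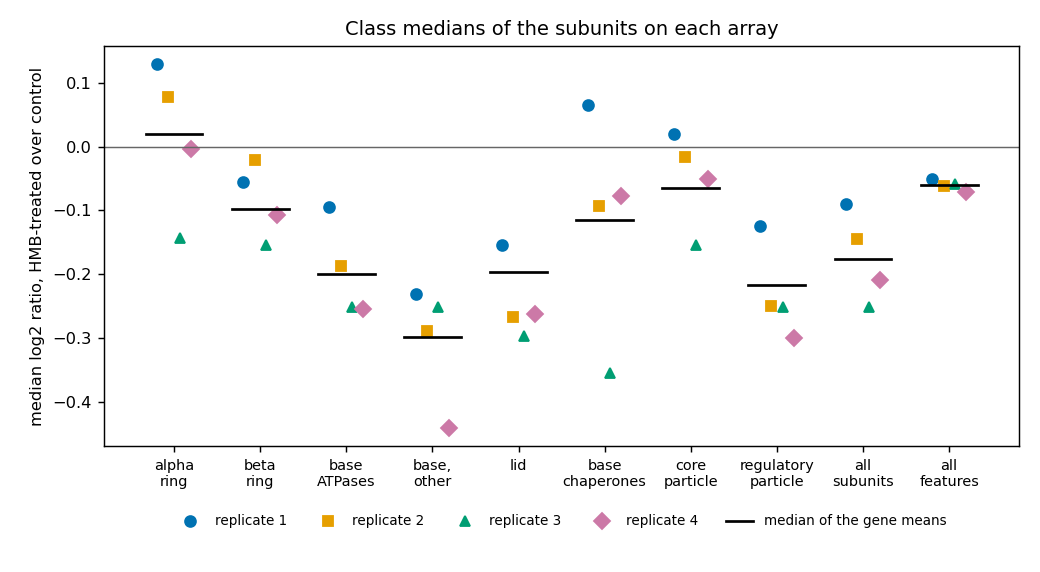
Median log2 ratio of HMB-treated over control (y axis) for each class of subunits on each of the 4 arrays, with black lines for the median of the gene means. The regulatory particle lies below the core particle, here drawn without its catalytic subunits, on every array, and the medians of all features lie close to -0.06.

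Subunits of the alpha ring ran in both directions, with gene means between -0.50 and 0.27 and a median of 0.02. Without a filter on dim probes the median was -0.096, as *psma8* then entered it. The only called member of the ring was *psma4*. Its probe lies on chr1:113401713-113401772, plus strand, of EquCab1, the build named in the file headers. The sequence has an open reading frame and is shown because this single oligo carries the largest change among the tested members of the core particle.

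psma4: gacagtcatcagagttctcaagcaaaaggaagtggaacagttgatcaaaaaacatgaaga

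The log2 ratio of *psma4* was -0.53, -0.13, -0.82 and -0.54 on replicates 1 to 4. All 4 arrays lay below 0, but replicate 2 was close to 0 and replicate 3 was far lower. The mean was -0.50 ± 0.29 (SD, n = 4), which is an FC of 1.42 (adjusted p = 0.0129, limma). The normalized Cy3 signal of the control was between 2651 and 4042, while the Cy5 signal of HMB-treated cells was between 2227 and 2431, so the signals did not overlap. The control signal varied more between arrays than the HMB-treated signal. The call was lost with the methods' t-test (adjusted p = 0.0906), by which 11.4% of all features were called lower, and without the filter on dim probes (adjusted p = 0.0740). It was also lost with median centering and with limma's treat, which called 5.09% of all features lower.

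In the opposite direction, *psma6* was 0.34, 0.47, 0.17 and 0.09 on the 4 arrays. Each array lay above 0, yet the mean of 0.27 ± 0.17 (SD, n = 4) corresponds to an FC of only 1.20 (adjusted p = 0.0379). With median centering without lowess it reached 0.46 and was called higher, whereas it was -0.15 after scaling to the spike-in RNA. Of the remaining alpha subunits, *psma5* was 0.19 ± 0.11 and *psma3* was 0.14 ± 0.10, and neither passed the adjusted p. The mean of *psma7* was -0.25 ± 0.18, with an adjusted p just within the threshold of 0.05. The mean of *psma1* was -0.10 ± 0.15, with 1 array above 0. Subunits of the same ring thus passed the adjusted p of limma in opposite directions. With the methods' t-test, neither *psma6* (adjusted p = 0.109) nor *psma7* (adjusted p = 0.132) passed, nor did *psma4*.

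The tested members of the beta ring were *psmb1*, *psmb2*, *psmb3* and *psmb4*, which build the ring but carry no active site. Their median was -0.10, and it was 0.05 with median centering. None of the 4 passed the adjusted p in the limma test, and 3 had an unadjusted p under 0.05. With the methods' t-test, *psmb4* (adjusted p = 0.0339) and *psmb1* (adjusted p = 0.046) passed it, but neither reached the FC threshold. By that test, *psmb3* (adjusted p = 0.156) and *psmb2* (adjusted p = 0.522) did not pass. The lowest was *psmb3*, with -0.07, -0.16, -0.56 and -0.28 on the 4 arrays. Replicate 3 stood lowest here too, and the mean was -0.27 ± 0.21 (SD, n = 4; adjusted p = 0.0552). The highest was *psmb4*, with 0.11, 0.21, 0.13 and 0.15. These arrays lay close together above 0, with a mean of 0.15 ± 0.04 (adjusted p = 0.0868). For *psmb1*, the mean was -0.16 ± 0.06, and for *psmb2*, it was -0.03 ± 0.08.

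The ATPases of the base, *psmc1* to *psmc6*, form the ring of motors on top of the alpha ring. They ran closely together, with all 6 means between -0.25 and -0.11 and a median of -0.20. The adjusted p of limma was passed by *psmc2*, *psmc4* and *psmc6*, but none of the 6 reached the FC threshold. An unadjusted p under 0.05 was found in 4 of them. With the methods' t-test, *psmc2*, *psmc4* and *psmc5* (adjusted p = 0.0237) passed, while *psmc6* did not (adjusted p = 0.0823). The probe of *psmc4* is shown because its ratio was among the most even of all subunits, and because it crosses an intron. Its 60 bases map to chr10:10535445-10535674, plus strand, a stretch of 230 bases, so the probe reads spliced RNA.

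psmc4: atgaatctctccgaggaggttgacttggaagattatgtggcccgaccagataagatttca

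The ratio of *psmc4* was -0.19, -0.26, -0.25 and -0.30, with a mean of -0.25 ± 0.05 (SD, n = 4; adjusted p = 0.0169). For the lowest mean, *psmc6*, the arrays gave -0.08, -0.23, -0.40 and -0.30, with a mean of -0.25 ± 0.14 (adjusted p = 0.0326). For the highest, *psmc3*, they gave 0.02, -0.11, -0.13 and -0.21, with a mean of -0.11 ± 0.09 (adjusted p = 0.237). Replicate 1 was the highest array in each of these 3 ATPases. The means of the lowest and the highest ATPase were closer to each other than the 4 arrays of *psmc6*.

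Among the base subunits without ATPase activity, *psmd1* had the lowest mean of all members. It encodes one of the large scaffold subunits that connect the base with ubiquitin-binding proteins. The ratio was -0.46, -0.42, -0.56 and -0.71 on the 4 arrays. All of them lay below the FC threshold of -0.38, with a mean of -0.54 ± 0.13 (SD, n = 4), an FC of 1.45 and an adjusted p of 0.00197. The pair of *psmd1* probes, at chr6:18561506-18561565 and chr6:18561566-18561625 on the plus strand, abut each other and were both called lower, with -0.57 and -0.50. They start at bases 3084 and 3144 of the transcript, so no other part of it was measured. Whether this stretch is coding was not annotated. The call of *psmd1* was lost only with treat, which asks for an FC above 1.3. The second scaffold subunit, *psmd2*, was -0.30 ± 0.10 (FC 1.23, adjusted p = 0.0131). The ubiquitin receptor *psmd4* was 0.03, -0.29, -0.25 and -0.30, so that replicate 1 stood apart from 3 arrays with close values, and its mean of -0.20 ± 0.16 did not pass (adjusted p = 0.0784).

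All 7 lid subunits among the members had means below 0, between -0.49 and -0.07, with a median of -0.20. The lowest of them was *psmd12*, a structural subunit of the lid. Its pair of probes abut each other on chromosome 11, and the 60 bases at chr11:13043834-13043893, minus strand, are shown beside the probe of *psmd6*, another structural lid subunit, at chr16:25279671-25279730, plus strand. These are the lid genes next to the FC threshold, on either side of it.

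psmd12: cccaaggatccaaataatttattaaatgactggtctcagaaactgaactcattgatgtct
psmd6: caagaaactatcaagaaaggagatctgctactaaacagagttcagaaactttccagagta

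The ratio of *psmd12* was -0.37, -0.39, -0.71 and -0.50 on the 4 arrays. Replicate 3 was the lowest, and the mean was -0.49 ± 0.15 (SD, n = 4), with an FC of 1.41 and an adjusted p of 0.00358. Its signal was moderate, between 608 and 824 in the control and between 423 and 491 in HMB-treated cells for the probe shown. The call was lost when the background was corrected by normexp (-0.35) or left in (-0.38), and with treat. The ratio of *psmd6* was -0.33, -0.30, -0.45 and -0.40, a narrower spread than that of *psmd12*. The mean was -0.37 ± 0.07, with an FC of 1.29 and an adjusted p of 0.00461, and *psmd6* was called after a GC correction and when replicate 1 or 2 was left out.

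The lid enzyme *psmd14*, which cuts ubiquitin chains from the substrate, was -0.29 ± 0.11 (adjusted p = 0.0151). The other lid subunits did not pass the adjusted p of limma, with means of -0.20 for *psmd3*, -0.18 for *psmd13* and -0.13 for *psmd11*. Of these, *psmd13* passed with the methods' t-test (adjusted p = 0.043), without reaching the FC threshold. The highest lid mean was that of *psmd8*, with -0.06, -0.18, -0.06 and 0.04 on the arrays and a mean of -0.07 ± 0.09 (adjusted p = 0.442).

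The chaperones of base assembly bind the ATPases before the base is complete and are absent from the finished particle. Their median was -0.12. The lowest, *psmd9*, was -0.35, -0.42, -0.40 and -0.17. Replicate 4 was the highest array here, and the mean of -0.33 ± 0.12 (SD, n = 4) passed the adjusted p of limma (0.0103) but not the FC threshold. The highest, *psmd10*, was 0.16, -0.08, -0.17 and 0.12, with arrays on both sides of 0 and a mean of 0.005 ± 0.157 (adjusted p = 0.965). The mean of *psmd5* was -0.12 ± 0.18.

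The constitutive subunits *psma2* and *psmd7* carried no symbol in the files and were therefore not among the 31 genes. The base subunit *adrm1* and the lid subunit *shfm1* also fell outside the rule and are given with the proteasome-bound genes. The probe of *psma2* was identified through its RefSeq accession and that of *psmd7* through its description. They changed in opposite directions. The alpha subunit *psma2* was 0.49, 0.65, 0.39 and 0.37, all above 0, with a mean of 0.48 ± 0.13 (SD, n = 4), an FC of 1.39 and an adjusted p of 0.00300. The lid subunit *psmd7*, the partner of *psmd14* in the lid, was -0.43, -0.49, -0.71 and -0.44, all below 0, with a mean of -0.52 ± 0.13, an FC of 1.43 and an adjusted p of 0.00222. With these genes added, 4 subunits were called lower and 1 higher of 31, against 16.4% and 12.5% of all features. The *psmd7* probe, at chr3:19864979-19865038 on the minus strand, is shown because its change rests on this single oligo.

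psmd7: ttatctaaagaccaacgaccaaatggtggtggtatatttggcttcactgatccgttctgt

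Of the 29 tested subunits, 13 had several tested probes, and the range of the probe means within a gene was at most 0.27. This largest range belonged to *psmb2*, whose probes gave -0.17 and 0.10, with opposite signs and no call for either. It was followed by *psmd2*, with a range of 0.17, and *psmd5*, with 0.16. At the level of single probes, 5 were called lower, namely the single probe of *psma4* and both probes of *psmd1* and *psmd12*, and none was called higher, against 16.4% and 12.1% of all probes. The probes of a gene are not independent measurements, since 18 probes started fewer than 60 bases after the previous one. The first and the last of the 5 *psmb4* probes and of the 5 *psma7* probes are shown to make this visible, with the shared bases in capitals. The *psmb4* probes lie on an unplaced sequence, and those of *psma7* map to chr22:48097491-48098004, minus strand, across an intron.

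psmb4 first: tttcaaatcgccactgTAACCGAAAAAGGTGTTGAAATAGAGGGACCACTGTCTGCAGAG
psmb4 last: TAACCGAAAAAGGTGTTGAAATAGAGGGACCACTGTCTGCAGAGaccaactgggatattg
psma7 first: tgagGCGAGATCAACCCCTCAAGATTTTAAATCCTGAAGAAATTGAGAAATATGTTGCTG
psma7 last: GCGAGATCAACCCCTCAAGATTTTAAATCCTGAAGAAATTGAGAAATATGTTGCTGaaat

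The *psmb4* oligos share 44 bases, and the ratio was 0.20 for the first and 0.11 for the last. The *psma7* oligos share 56 bases, and all 5 probes of that gene gave between -0.27 and -0.23. The probes of *psmb4* and of *psma7* thus share most of their bases, whereas other pairs, such as those of *psmd1* and *psmd12*, share none. Of the 55 tested probes, 13 mapped to more than 60 bases of the genome. The median GC content was 43.3% for the subunit probes and 41.7% for all tested probes.

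**Figure D3:**
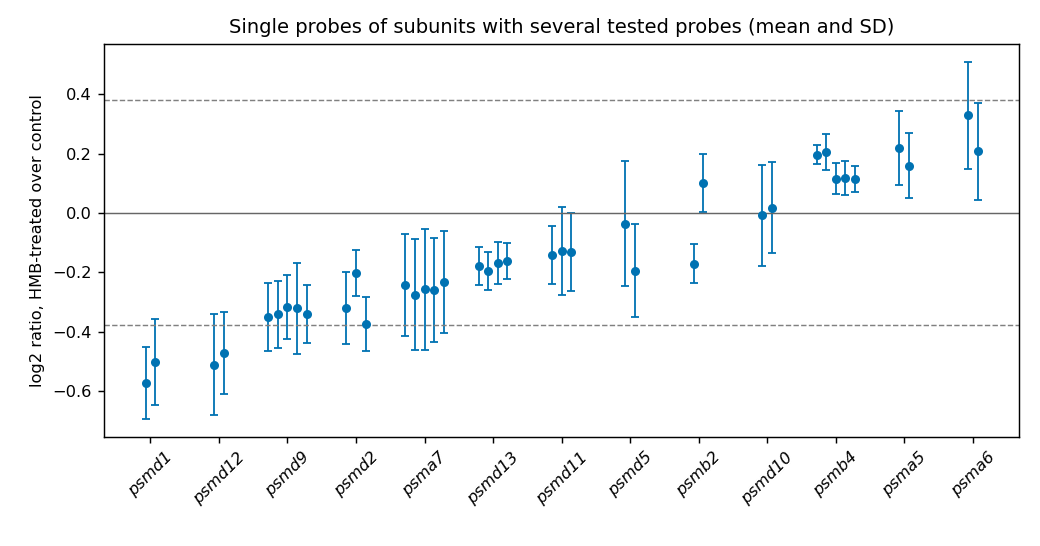
Mean log2 ratio of HMB-treated over control (y axis) with the SD over 4 arrays for each tested probe of the 13 subunits with several probes, ordered by the gene mean; dashed lines mark an FC of 1.3. The widest ranges belong to *psmb2* (-0.17 and 0.10), *psmd2* (-0.37 to -0.20) and *psmd5* (-0.19 and -0.04).

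The arrays did not contribute equally. Replicate 3 gave the lowest ratio in 15 of the 29 subunits, whereas it was lowest in 26.1% of all features, and replicate 4 was lowest in 10. In the alpha ring, replicate 3 was lowest in 5 of 6 subunits, whereas in the regulatory particle replicate 4 was lowest in 8 of 16 and replicate 3 in 6. Without replicate 3, the median of the subunits was -0.16 and 3 genes were called lower.

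The inducible catalytic subunits and several activators changed more than any constitutive subunit tested. The constitutive catalytic genes *psmb5*, *psmb6* and *psmb7* were -0.24 ± 0.07, -0.33 ± 0.08 and -0.18 ± 0.07, and none was called by limma or by the methods' t-test, although all 3 had an unadjusted p under 0.05 with limma. Their inducible counterparts *psmb8*, *psmb9* and *psmb10* were 2.83 ± 0.24, 2.28 ± 0.28 and 1.64 ± 0.34, and all 3 were called higher. The value of *psmb8* rests on 1 probe with a low control signal, between 54 and 94, though both channels were well above background. The probes of *psmb9* start at bases 660 to 664 of the transcript and thus share most of their bases. The log2 ratio of the inducible gene exceeded that of its counterpart on 4 of 4 arrays. The difference was 3.07 ± 0.28 for *psmb8* over *psmb5*, 2.60 ± 0.32 for *psmb9* over *psmb6* and 1.82 ± 0.38 for *psmb10* over *psmb7*. It compares the changes with HMB and not the expression levels of the genes. These differences were not tested, since the rise of the inducible genes was known when the pairs were formed.

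Among the caps that replace the regulatory particle, *psme1* (0.87 ± 0.16) and *psme2* (1.22 ± 0.20), which form an activator induced by interferon, were called higher. The nuclear activator *psme3* was -0.29 ± 0.14 and was not called, while *psme4*, the large single-chain activator, was called lower (-0.58 ± 0.07). The proteasome inhibitor *psmf1* was called higher (0.80 ± 0.27). Of the chaperones of 20S assembly, *psmg1* was called lower (-0.44 ± 0.24, adjusted p = 0.0142), its partner *psmg2* was -0.25 ± 0.12, and *psmg3*, *psmg4* and *pomp* were between -0.03 and 0.08. The list of proteasome-bound genes had all 7 means below 0, with a median of -0.33. It includes *adrm1* (-0.27 ± 0.08) and *shfm1* (-0.33 ± 0.12), which are themselves subunits of the base and the lid. Of the proteasome-bound genes, the deubiquitinase *uchl5* (-0.43 ± 0.17) and *txnl1* (-0.40 ± 0.10) were called lower. Of 12 tested genes for ubiquitin, its activation and the shuttling of substrates, *uba6*, an activating enzyme, was called higher (0.63 ± 0.14), whereas the unfoldase *vcp* (-0.61 ± 0.14) and the shuttle *rad23b* (-0.38 ± 0.24) were called lower.

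None of the 5 tested regulators of subunit transcription was called by limma or by the methods' t-test, and 2 had an unadjusted p under 0.05 with limma. The transcription factor *nfe2l1*, which induces subunit genes when the proteasome is overloaded, was -0.85, -0.44, 0.09 and -0.53, and replicate 3 was the exception above 0. Its mean was -0.43 ± 0.39 (adjusted p = 0.0511). In all, the lists of catalytic, activating, chaperone, bound, ubiquitin and regulatory genes held 46 genes. Of these, 42 were found among the gene names, 40 were tested, 7 were called higher and 6 lower, which is near the background of 12.5% and 16.4% of all features.

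**Figure D4:**
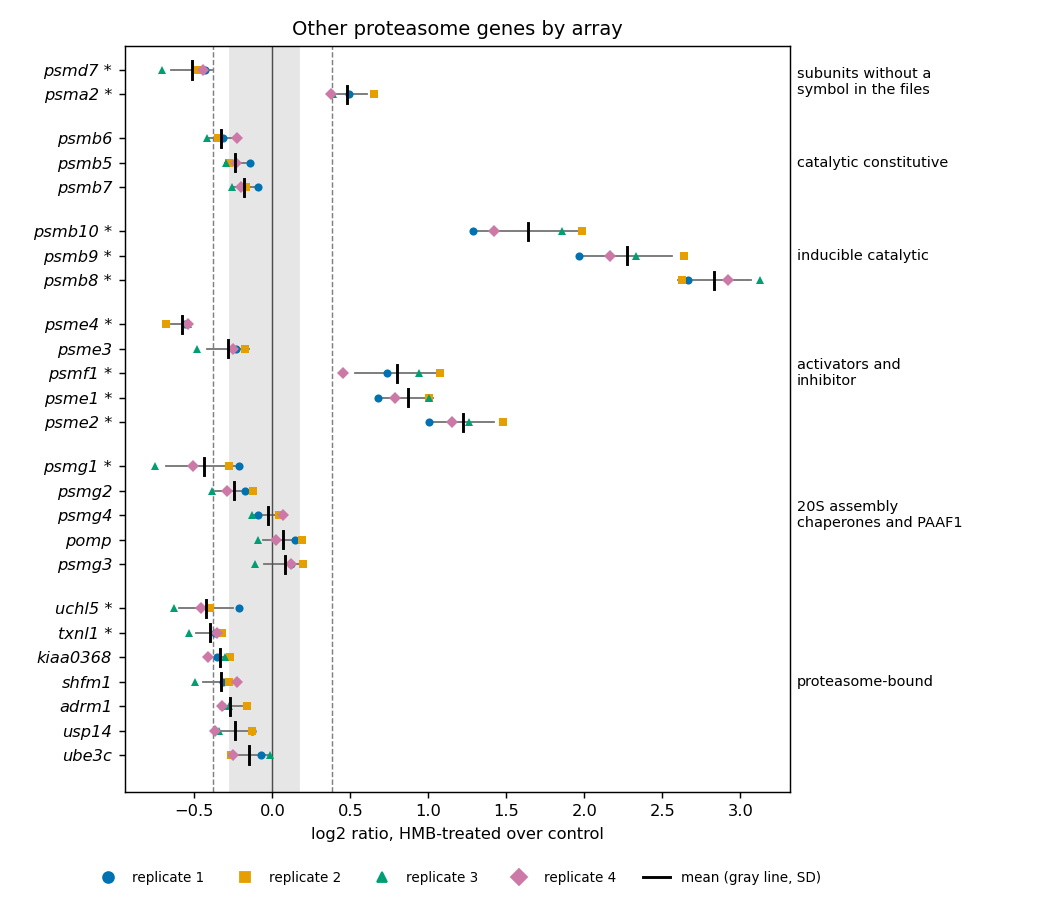
Log2 ratio of HMB-treated over control (x axis) for proteasome genes other than the 29 subunits, with the 4 arrays as symbols, the mean as a black bar and the SD as a gray line; the band and the dashed lines are as in the plot of the subunits. The 3 inducible catalytic genes lie between 1.29 and 3.13 on every array, while the 3 constitutive ones stay between -0.42 and -0.09.

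Markers of cell types moved along with the treatment. Of 9 markers of satellite cells and myotubes, 7 were tested, and *myf5*, *des*, *ncam1*, *myh3* and *acta1* were called lower, while *myod1* and *myog* were not called, with a median of -1.10 over the 7. The summed normalized signal of the 7 was between 164760 and 185933 in the control and between 62377 and 99367 in HMB-treated cells, with no overlap. Of 5 fibroblast markers, 4 were tested and *pdgfra*, *thy1* and *dcn* were called higher. Of all features, 16.4% were called lower and 12.5% higher. The summed signal of the 4 fibroblast markers was between 182733 and 212091 in the control and between 208963 and 319800 with HMB. These ranges overlapped. Of 5 leukocyte markers, 2 were tested. The marker *cd68* was called higher (0.88 ± 0.20) and *cd14* was not called. The summed signal of this pair was between 3652 and 4392 in the control and between 4126 and 6169 with HMB, again with overlap. The probe of *csf1r* was too dim to be tested, and *ptprc* was not found among the gene names. The probes of *cd3e* and of all 4 endothelial markers were well above background on 0 arrays, and no adipocyte marker was tested. The part of the cell types in the ratios of the subunits was not tested.

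Normalization moved the level of the subunits. Lowess removes a shift that most transcripts share, and scaling to the spike-in RNA moved the median of all features from -0.06 to -0.47 and that of the subunits from -0.18 to -0.59. This scaling shifts all features of an array alike, so distances between groups of genes cannot change with it. A total of 25 of the 29 subunits were then called lower, as were 61.1% of all features. With median centering without lowess, the median of the subunits was -0.05, and its distance to all features was -0.05, compared with -0.12 as reported. The core median without *psmb5*, *psmb6* and *psmb7* exceeded that of the regulatory particle by 0.20 with median centering and by 0.088 without a filter on dim probes. In the latter setting *psma8* and *psmb11* entered the core median.

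**Figure D5:**
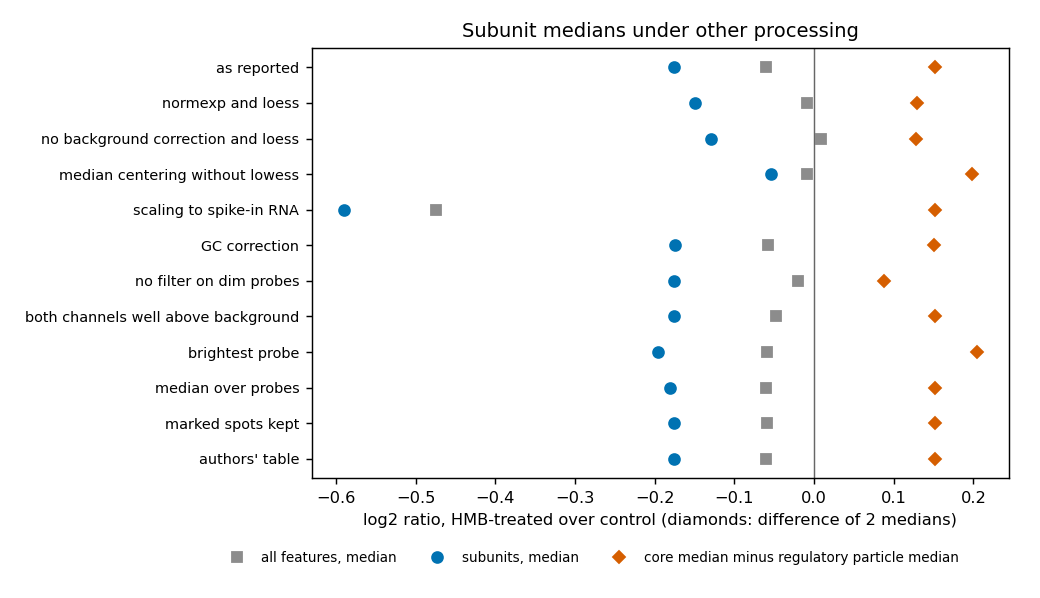
Median log2 ratio of the subunits (circles) and of all features (squares), and the core median minus the regulatory particle median (diamonds), on the x axis, under each processing alternative (y axis). The diamonds, in which the core lacks *psmb5*, *psmb6* and *psmb7*, lie between 0.088 and 0.20. The circles move with the normalization and reach -0.59 with scaling to the spike-in RNA.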

How the data were processed

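Gene expression was measured on 4 Agilent horse arrays with probes of 60 bases. The authors' scanner files hold intensity values of each channel with the background subtracted. Feature Extraction scaled the channels within each array by a linear and a lowess step and gave the deposited log10 ratio of Cy5 (HMB-treated) over Cy3 (control). The authors' table of normalized log10 ratios differed by at most 3.96e-05. The log2 ratios used here are the deposited log10 ratios changed to base 2. Control spots and spots marked as outliers were left out. Between 55.2% and 61.8% of the spots of a channel were well above background. The number of arrays limits the precision.

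Ratios were averaged over the tested probes of each gene name and tested against 0 with limma 3.58.1 in R 4.3.3 (lmFit and eBayes), with the Benjamini-Hochberg correction over all 13978 features, and thresholds of 0.05 for the adjusted p and 1.3 for the FC. The scripts were tested on simulated data. The alternatives were the methods' t-test, treat, normexp (offset 50) or no background correction with loess, median centering, scaling to the spike-in RNA, a GC correction, other filters and probe summaries, the authors' table and the omission of each replicate. Array values are given for the called members and the lowest and highest member of each class. The members, the classes and the other lists were chosen with earlier results of these data known. The comparison of core and regulatory particle and the addition of the catalytic subunits, *psma2* and *psmd7* were chosen after the values were seen. No reference genome was used, and probe coordinates and sequences are those of the files.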

Additional observations from a re-analysis of the deposited data

Results flagged for a closer look

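Replicate 1 of *psmd4* stood apart from the other arrays, with a log2 ratio of 0.029 against -0.30 to -0.25 in the other 3. Its gap to the nearest array was 0.848 of the range. Of the 29 genes checked, 1 met this criterion, and chance alone marks about 1 group in 20.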

How the results depend on the processing

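The count of 3 subunits called lower was 0 with treat and 25 with scaling to the spike-in RNA, and 2 with median centering. No subunit was called higher by limma, except for 1 with median centering and 1 when *psma2* and *psmd7* were added. The median of the subunits was -0.054 with median centering and -0.59 with scaling to the spike-in RNA. Under these 2 settings, the class medians were 0.14 and -0.39 for the alpha ring, 0.054 and -0.51 for the beta ring, -0.072 and -0.61 for the ATPases, -0.16 and -0.71 for the other base subunits, and -0.11 and -0.61 for the lid. The chaperones were at -0.53 with the spike-in RNA. With the brightest probe of each gene, the beta ring was at -0.030 and the other base subunits at -0.20. Without a filter on dim probes, the beta ring was at -0.16, the alpha ring turned from 0.020 to -0.096, and the core median exceeded that of the regulatory particle by 0.088 in place of 0.15. The tested subunits kept their ratios in this setting, and the medians moved because the dim *psma8* and *psmb11* entered them. The difference of core and regulatory particle was 0.055 with the catalytic subunits added to the core. The lid was at -0.13 with normexp and at -0.11 without background correction. The share of all features called was 28.9%, but 11.003% with treat, 12.9% with normexp, 17.1% without background correction, 66.4% with the spike-in RNA and 16.96% without a filter on dim probes. Of the called features, 43.2% were higher with HMB, and this share was 53.8% with treat, 57.2% with normexp, 62.2% without background correction and 7.95% with the spike-in RNA. Apart from the entry of *psma8* and *psmb11*, the cause was not tested in any of these cases.

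The sign of a subunit turned with median centering for *psma1* (0.022), *psmb2* (0.14), *psmc3* (0.0061) and *psmd8* (0.088), and with the spike-in RNA for *psma3* (-0.28), *psma5* (-0.23), *psma6* (-0.15), *psmb4* (-0.26) and *psmd10* (-0.41). It also turned for *psmb2* with the brightest probe (0.10) and without replicate 3, where leaving out single arrays gave -0.058 to 0.00050, and for *psmd10* without replicate 1 or 4, where it gave -0.046 to 0.063. None of these genes was called as reported.

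With each replicate left out in turn, 3 to 4 subunits were called lower and 0 higher, and the median was between -0.19 and -0.16. The class medians were between -0.02 and 0.07 for the alpha ring, -0.12 and -0.08 for the beta ring, -0.23 and -0.18 for the ATPases, -0.32 and -0.25 for the other base subunits, -0.26 and -0.18 for the lid, and -0.18 and -0.03 for the chaperones. The core median exceeded that of the regulatory particle by 0.12 to 0.18, and 26.9% to 29.2% of all features were called. The fourth gene was *psmd6* without replicate 1 or 2 and *psmd9* without replicate 4.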
